A study of Mus musculus with 35 samples.

Results

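Genes that code for the machinery of DNA replication and mitosis were followed in the brain of mice lacking the beta2 adrenergic receptor (KO) and of wild-type mice (WT), after stroke, after sham surgery and without surgery. The list names 35 genes by their known function, although its members were chosen with earlier results of these data known. Values of 34 of them were used, among 18193 genes in all, and Ccnb1 was not analysed here. Where a gene had several probe sets, the brightest on average stood for it, and the 34 genes had 80 probe sets between them.

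All mice were males on the FVB background. The groups were 7 KO MCAO and 3 KO sham arrays, 7 WT MCAO and 3 WT sham arrays, and 7 KO naive and 8 WT naive arrays. MCAO, the occlusion of the middle cerebral artery, is a model of ischemic stroke, and RNA came from the occluded side, or from the matching side after sham surgery, 24 h after the operation. Naive mice had no operation, and their arrays were normalized separately from the surgery arrays, so levels were never set against each other across these sets. The labels give neither the age of the mice nor how the knockout was made, and they do not say whether each array is a separate animal, so p-values measure the spread between arrays.

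In a dividing cell, the MCM proteins form a ring-shaped helicase that Cdc6 and Cdt1 load onto origins of replication, Cdc45 and the GINS complex switch the helicase on, and Pcna clamps the polymerases to the DNA. E2F factors, released from pocket proteins by cyclin-dependent kinases, switch many of these genes on at the start of S phase, while a later programme of cyclins, kinases and spindle proteins peaks in mitosis. Most neurons of the adult brain do not divide, and microglia, astrocytes, endothelial cells and progenitors are the cells known to divide in the days after a stroke.

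After MCAO, 7 of the 10 licensing and helicase genes rose in KO and 4 in WT, while of the 11 spindle and checkpoint genes 1 was lower in KO and 0 were called in WT. The difference between these groups of genes was not tested. In KO MCAO against KO sham, 9 of the 34 genes were higher and 4 lower (adjusted p under 0.05, limma with Benjamini-Hochberg adjustment over all genes), beside 25% of all genes called, 16.1% higher and 8.9% lower. In WT MCAO against WT sham, 6 were higher and 0 lower, beside 15.9% of all genes called, 8.68% higher and 7.27% lower. An unadjusted p under 0.05 was found for 16 of the 34 genes in KO and for 12 in WT. The 34 genes had a median log2 difference of 0.07 in KO, where all genes had -0.005, and of 0.26 in WT, where all genes had 0.05. All 6 genes called in WT (Ccnd1, Cdt1, Gins1, Mcm3, Mcm4 and Pcna) were among the 9 called higher in KO, and the other 3 of the KO list were Mcm5, Mcm6 and Mcm7. Of the KO calls 4 were also at least 2-fold, beside 2.67% of all genes, and of the WT calls 1, beside 2.86%. MCAO and sham arrays did not overlap for 12 of the 34 genes in KO, beside 24.8% of all genes, and for 6 in WT, beside 19.9%. These values come from whole hemispheres, in which more or fewer cells of a type and more or less RNA per cell cannot be told apart.

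**Figure D1:**
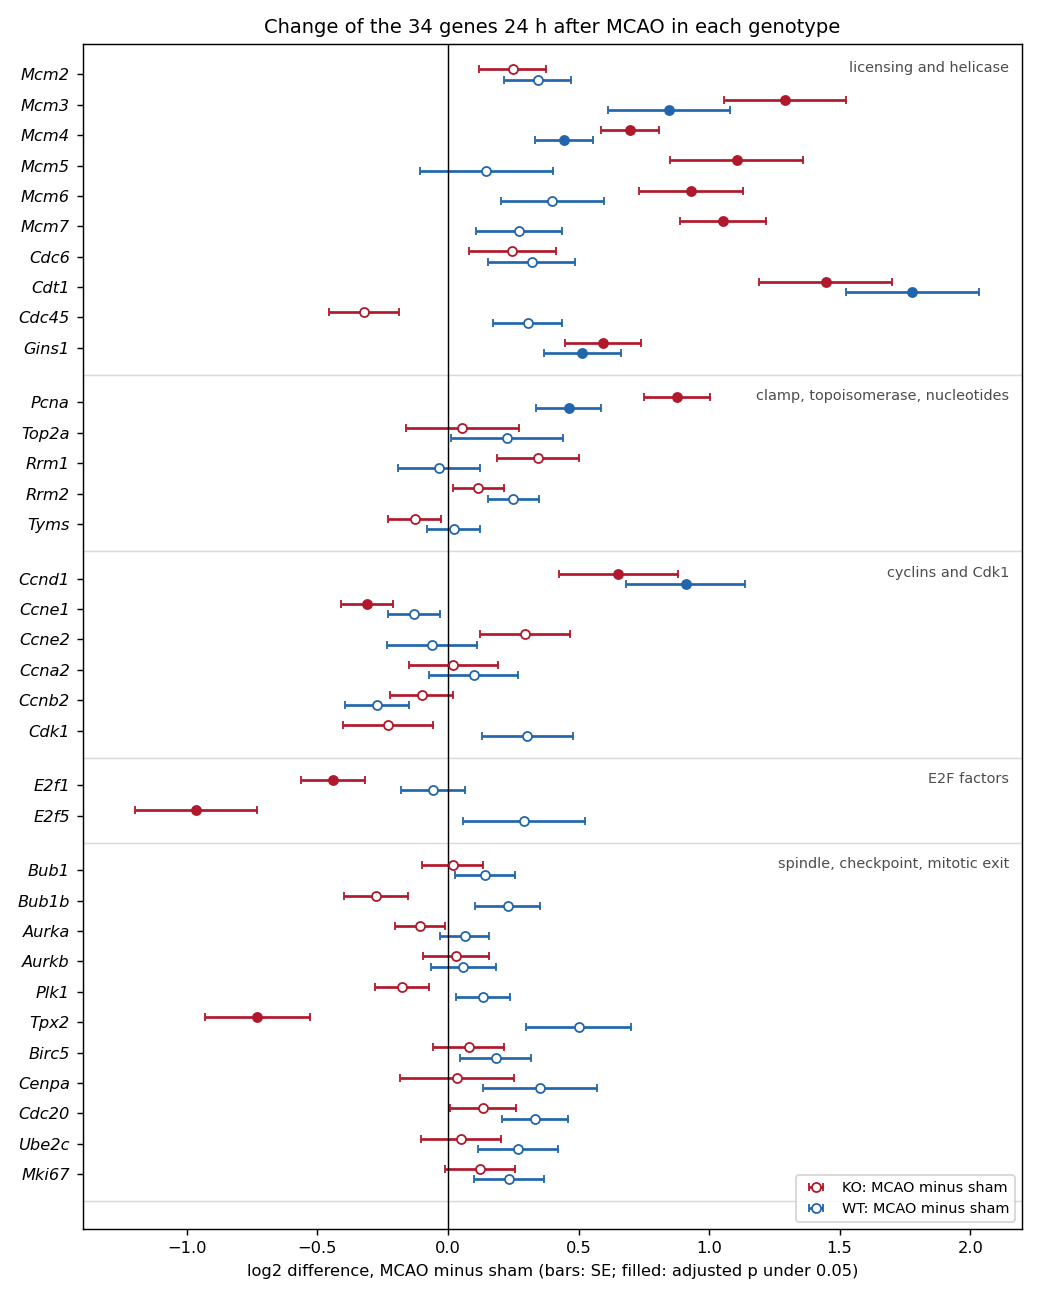
Log2 difference between MCAO and sham arrays for each of the 34 genes, in KO (red, above) and WT (blue, below), with bars for the SE and filled points for an adjusted p under 0.05; n = 7 MCAO and 3 sham arrays per genotype. The filled points to the right of 0 belong to the helicase and licensing group, to Pcna and to Ccnd1, while the spindle group lies near 0 in KO, with Tpx2 at -0.73, and between 0.06 and 0.50 in WT.

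None of the 10 licensing and helicase genes was called lower in either genotype. Cdt1, which loads the MCM ring at origins and is destroyed once S phase begins, had the largest rise of the 34 genes in both genotypes. Its log2 signal was 7.09 at the lowest, 7.53 at the median and 8.18 at the highest in KO MCAO arrays, against 6.02, 6.04 and 6.15 in the KO sham arrays. The WT MCAO arrays held 7.30, 7.83 and 8.98, against 6.05, 6.32 and 6.01 in the WT sham arrays. Here and below, 3 values for MCAO or naive arrays are the lowest, median and highest. Those for sham arrays are the single arrays 1, 2 and 3 in order. Every MCAO array lay above every sham array in both genotypes. The difference was 1.45 in KO, or 2.72-fold (SE 0.25, adjusted p = 0.000398), and 1.78 in WT, or 3.43-fold (SE 0.25, adjusted p = 8.47e-05). A further Cdt1 probe set rose by 1.05 in KO and 1.10 in WT, and the other, at a mean log2 signal of 3.7, had differences of -0.12 in KO and 0.04 in WT that did not pass the test.

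**Figure D2:**
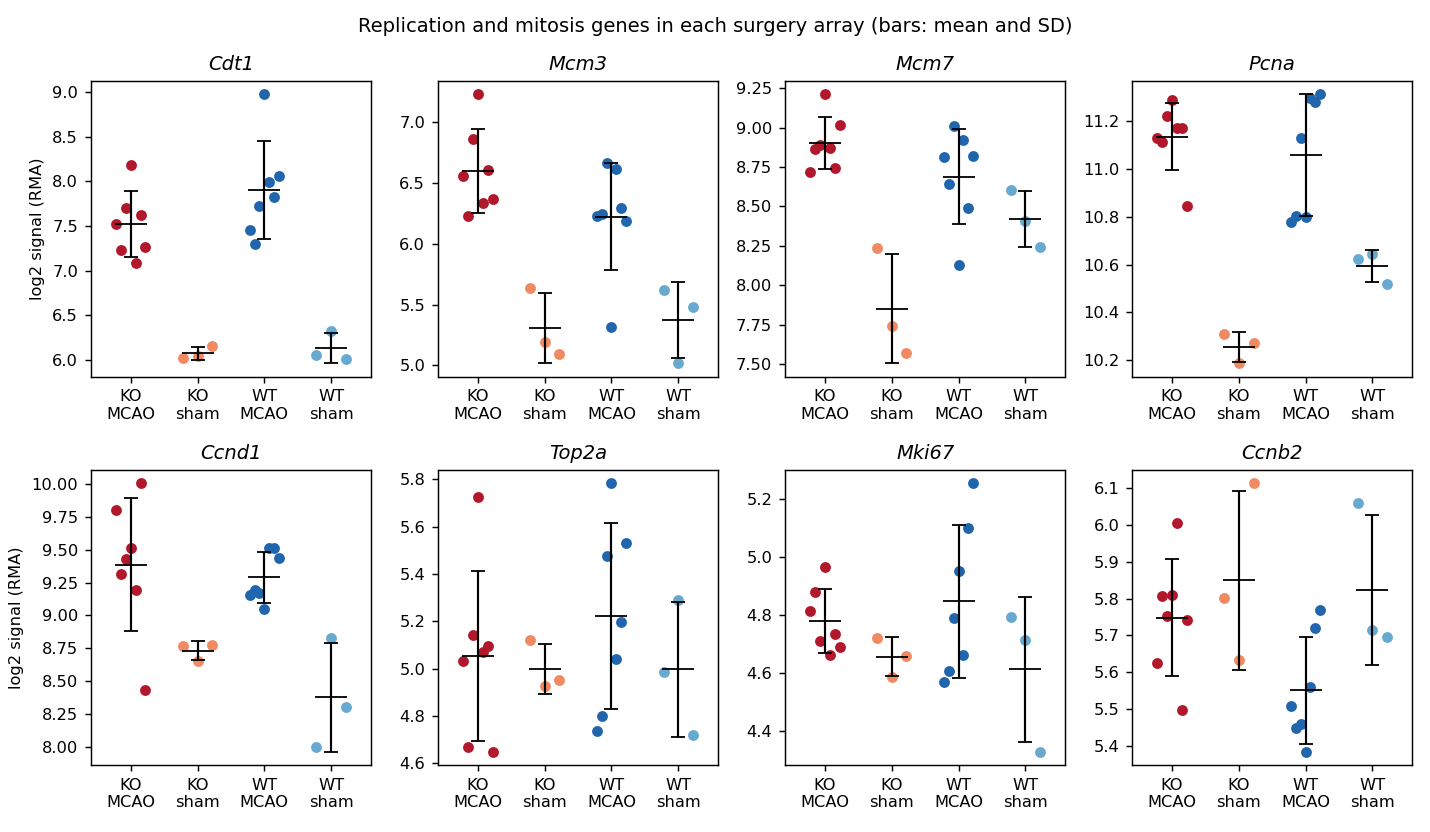
Log2 signal of 8 genes in every surgery array, by group, with bars for the group mean and SD (n = 7 MCAO and 3 sham arrays per genotype); the axes do not start at 0 and differ between genes. Cdt1 and Pcna show no overlap between MCAO and sham arrays in either genotype, Mcm7 shows none in KO, and Top2a, Mki67 and Ccnb2 overlap in every pair.

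Mcm3, a subunit of the MCM ring, measured 6.23, 6.55 and 7.22 (lowest, median, highest) in KO MCAO arrays, against 5.63, 5.19 and 5.09 in the KO sham arrays. The WT MCAO arrays gave 5.32, 6.25 and 6.66, against 5.62, 5.02 and 5.48 in the WT sham arrays. The groups did not overlap in KO, and in WT they overlapped through WT MCAO array 4 alone, which held the 5.32. The rise was 1.29 in KO (SE 0.23, adjusted p = 0.000514) and 0.85 in WT (SE 0.23, adjusted p = 0.0174), and the WT value was 0.67 without WT sham array 2 (adjusted p = 0.117). Of the 4 further Mcm3 probe sets, 2 rose in KO, by 0.85 and 0.83, and 1, at a mean signal of 3.5, was lower by -0.27 (adjusted p = 0.0461 over all probe sets). Mcm3 thus rested on the brighter probe sets, and the dim one pointed down in KO.

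Mcm4, a subunit of the ring's catalytic core, measured 7.45, 7.69 and 8.13 in KO MCAO arrays, against 7.09, 6.95 and 7.06 in the KO sham arrays. WT MCAO arrays gave 7.49, 7.68 and 7.79, against 7.16, 7.34 and 7.13 in the WT sham arrays. Neither genotype showed an overlap. Mcm4 rose by 0.70 in KO (SE 0.11, adjusted p = 0.000174) and by 0.44 in WT (SE 0.11, adjusted p = 0.00994), and the WT call was lost when WT sham array 1 was left out (0.42, adjusted p = 0.0572) and when WT sham array 3 was (0.41, adjusted p = 0.0594). Its second probe set rose by 1.36 in KO and had a difference of 0.31 in WT (adjusted p = 0.335 over all probe sets).

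Mcm7, another subunit of that core, measured 8.72, 8.87 and 9.21 in KO MCAO arrays, against 8.24, 7.74 and 7.57 in the KO sham arrays. Values in WT MCAO arrays were 8.13, 8.81 and 9.01, against 8.60, 8.41 and 8.25 in the WT sham arrays. The groups did not overlap in KO and overlapped in WT. Mcm7 rose by 1.05 in KO (SE 0.16, adjusted p = 0.000133), where its 3 further probe sets also rose, by 0.60, 0.58 and 0.41. In WT the difference was 0.27 (95% confidence interval -0.07 to 0.61, adjusted p = 0.266), and its 3 further probe sets, at 0.26, 0.40 and 0.20, did not pass the test.

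Mcm5 and Mcm6 complete the subunits that rose in KO. Mcm5 measured 6.73, 6.97 and 7.54 in KO MCAO arrays, against 6.12, 5.64 and 5.92 in the KO sham arrays, a rise of 1.11 (SE 0.25, adjusted p = 0.00364) with no overlap. WT MCAO arrays held 5.54, 6.81 and 7.25, against 6.59, 6.63 and 6.20 in the WT sham arrays, an overlapping difference of 0.15 (95% confidence interval -0.38 to 0.68, adjusted p = 0.725). The probe set used for Mcm5 is of a design that can cross-hybridise, and a second one, of the standard design, rose by 0.70 in KO and had 0.13 in WT. The remaining Mcm5 probe set pointed down in KO and up in WT, and was called in neither. Mcm6 measured 7.04, 7.49 and 8.23 in KO MCAO arrays, against 6.30, 6.45 and 7.03 in the KO sham arrays. It rose by 0.93 in KO (SE 0.20, adjusted p = 0.00196), where the lowest MCAO array lay just above the highest sham array. In WT MCAO arrays Mcm6 held 6.93, 7.17 and 7.69, against 6.86, 6.73 and 6.89 in the WT sham arrays, groups that did not overlap either, yet the difference of 0.40 missed the threshold (95% confidence interval -0.01 to 0.81, adjusted p = 0.174). Mcm2, the remaining subunit, averaged 7.41 ± 0.21 in KO MCAO arrays and 7.16 ± 0.15 in KO sham arrays, and 7.44 ± 0.19 in WT MCAO arrays and 7.10 ± 0.13 in WT sham arrays (SD, n = 7 and 3), with adjusted p = 0.159 in KO and 0.0744 in WT.

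Gins1, a subunit of the GINS complex, measured 5.21, 5.44 and 5.80 in KO MCAO arrays, against 4.95, 4.89 and 4.75 in the KO sham arrays. Those of WT MCAO arrays were 5.0, 5.36 and 5.62, against 4.59, 5.20 and 4.72 in the WT sham arrays. The groups overlapped in WT alone. Gins1 rose by 0.59 in KO (SE 0.15, adjusted p = 0.00598) and by 0.51 in WT (SE 0.15, adjusted p = 0.0206), and the WT value missed the threshold when WT sham array 1 (0.39, adjusted p = 0.161) or WT sham array 3 (0.46, adjusted p = 0.103) was left out. Both calls were lost with the replicate number as a block, and the WT call also with the mean of the probe sets and after repeated quantile normalization. The further Gins1 probe set pointed up in KO and down in WT, and was called in neither. The loader Cdc6 had differences of 0.25 in KO and 0.32 in WT that did not pass the test (adjusted p = 0.282 and 0.196). Cdc45, the partner of the active helicase, measured 5.92, 6.16 and 6.25 in KO MCAO arrays, against 6.49, 6.36 and 6.48 in the KO sham arrays, and 5.93, 6.27 and 6.70 in WT MCAO arrays, against 5.78, 6.06 and 6.18 in the WT sham arrays. The KO groups did not overlap and the WT groups did. Cdc45 had -0.32 in KO (adjusted p = 0.0803) and 0.30 in WT (adjusted p = 0.126), and its second probe set had 0.29 in KO and 0.45 in WT, neither past the test.

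Averaged over the 10 licensing and helicase genes, every KO MCAO array lay 0.54 to 1.18 log2 units above the mean of the KO sham arrays, and every WT MCAO array 0.35 to 0.71 above that of the WT sham arrays. The sham arrays themselves ranged from -0.09 to 0.08 in KO and from -0.02 to 0.03 in WT. The 11 spindle and checkpoint genes ranged from -0.21 to 0.06 in KO MCAO arrays and from 0.01 to 0.45 in WT MCAO arrays on the same scale, against -0.03 to 0.03 in KO sham and -0.07 to 0.04 in WT sham arrays. KO MCAO array 4 held the highest helicase mean, and it was also the KO array that correlated least with its group (mean r = 0.979). Leaving it out together with WT MCAO array 4, the least correlated of the WT MCAO arrays (mean r = 0.980), a choice made after the data were seen, left 12 genes called in KO, 8 higher and 4 lower, and 7 in WT, all higher.

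**Figure D3:**
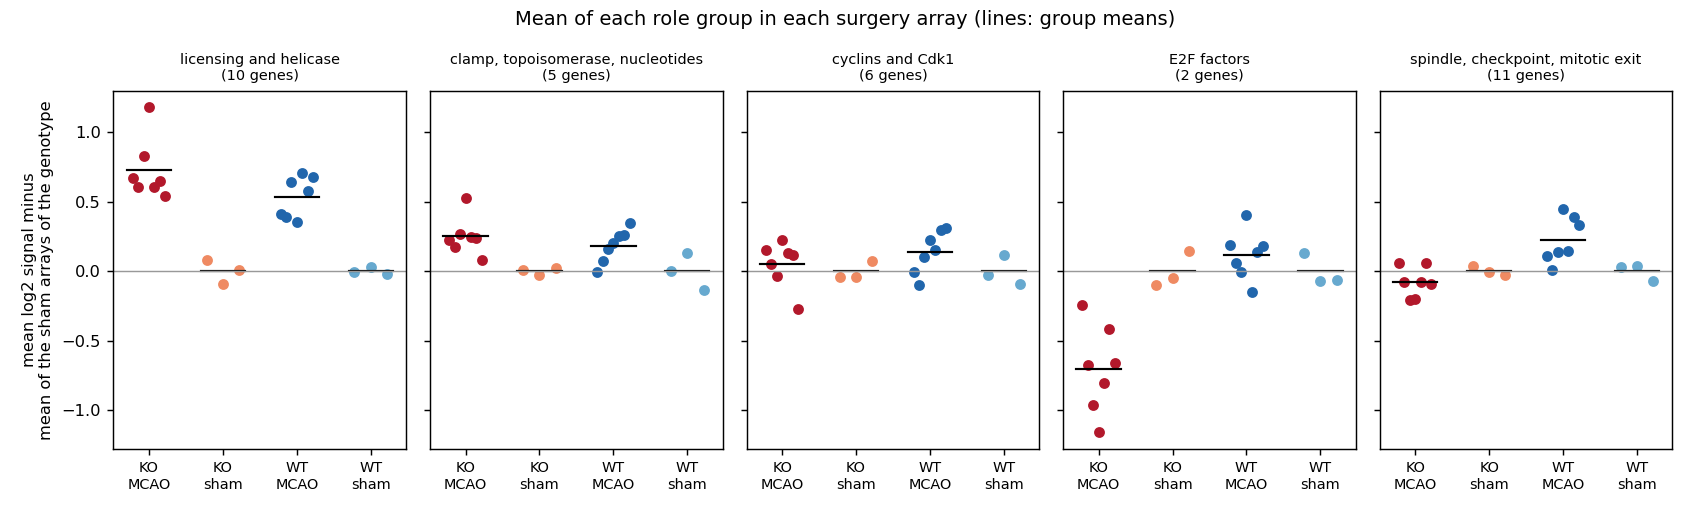
Mean log2 signal of the genes of each role in each surgery array, minus the mean of the sham arrays of the same genotype, with lines for the group means. The licensing and helicase points lie at 0.35 to 1.18 in MCAO arrays, the E2F points at -1.16 to -0.24 in KO MCAO and -0.15 to 0.41 in WT MCAO arrays, and the spindle points at -0.21 to 0.45. The E2F mean is of 2 genes, and further E2f5 probe sets were called the opposite way in KO, so it gives no direction for the E2F genes together.

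The promoters of several genes that rose, and of mitotic genes that did not pass the test, are printed here to set the letters beside the values. The sequences are the 250 bases upstream of the annotated start in RefSeq (mouse build GRCm38.p6), 5′ to 3′ on the strand of the gene. A promoter was listed for 26 of the 34 genes. Mcm7 had 2 listed starts, of which the upstream one is shown. Capitals mark matches on either strand to TTTNNCGC, a form of the site that E2F factors bind, to TTTGAA, the element known from genes of the later cell cycle, and to CCAAT, the box bound by NF-Y. Matches of different motifs did not overlap, but 2 matches to TTTNNCGC on opposite strands overlap each other in Mcm5 and in Mcm6.
Cdt1 (chr8:122567765-122568014, plus strand): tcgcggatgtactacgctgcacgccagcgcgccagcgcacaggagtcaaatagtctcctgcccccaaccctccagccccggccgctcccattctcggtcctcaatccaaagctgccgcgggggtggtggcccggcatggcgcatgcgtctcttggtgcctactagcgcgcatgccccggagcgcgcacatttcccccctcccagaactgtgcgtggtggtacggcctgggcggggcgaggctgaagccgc
Pcna (chr2:132253181-132253430, minus strand): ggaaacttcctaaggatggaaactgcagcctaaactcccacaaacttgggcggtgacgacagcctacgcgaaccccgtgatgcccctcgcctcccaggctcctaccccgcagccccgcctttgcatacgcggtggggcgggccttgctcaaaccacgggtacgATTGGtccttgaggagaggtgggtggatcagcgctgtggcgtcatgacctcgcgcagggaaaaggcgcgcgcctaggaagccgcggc
Mcm5 (chr8:75109259-75109508, plus strand): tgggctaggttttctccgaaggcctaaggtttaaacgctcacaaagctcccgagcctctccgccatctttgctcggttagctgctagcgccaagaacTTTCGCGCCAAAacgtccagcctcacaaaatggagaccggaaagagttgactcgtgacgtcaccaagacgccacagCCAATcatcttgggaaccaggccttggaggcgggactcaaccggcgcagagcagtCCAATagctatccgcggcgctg
Mcm6 (chr1:128359706-128359955, minus strand): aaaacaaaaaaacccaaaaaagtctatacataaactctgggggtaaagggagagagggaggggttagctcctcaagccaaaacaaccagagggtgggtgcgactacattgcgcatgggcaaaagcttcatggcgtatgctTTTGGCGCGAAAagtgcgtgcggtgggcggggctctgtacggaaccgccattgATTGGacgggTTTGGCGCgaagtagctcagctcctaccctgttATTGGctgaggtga
Mcm7 (chr5:138171884-138172133, minus strand): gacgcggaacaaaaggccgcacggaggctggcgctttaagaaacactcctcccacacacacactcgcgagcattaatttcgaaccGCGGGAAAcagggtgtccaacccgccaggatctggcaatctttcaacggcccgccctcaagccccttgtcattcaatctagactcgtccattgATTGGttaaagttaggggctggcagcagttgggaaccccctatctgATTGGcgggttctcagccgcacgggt
Ccnb2 (chr9:70421555-70421804, minus strand): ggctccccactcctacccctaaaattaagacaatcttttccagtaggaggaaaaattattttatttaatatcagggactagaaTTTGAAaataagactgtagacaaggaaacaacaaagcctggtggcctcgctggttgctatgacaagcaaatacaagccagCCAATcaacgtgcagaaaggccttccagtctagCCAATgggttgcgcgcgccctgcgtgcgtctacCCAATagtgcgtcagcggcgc
Mki67 (chr7:135716380-135716629, minus strand): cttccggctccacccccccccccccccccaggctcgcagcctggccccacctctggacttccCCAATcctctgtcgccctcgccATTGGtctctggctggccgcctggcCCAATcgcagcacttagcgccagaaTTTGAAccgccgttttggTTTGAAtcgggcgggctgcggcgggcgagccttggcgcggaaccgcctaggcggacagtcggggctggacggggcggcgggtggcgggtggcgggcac
TTTNNCGC matched 5 of the 26 promoters, those of Mcm5, Mcm6, Mcm7, Cdc6 and Cdk1, and 4.28% of 32851 mouse promoters of the same length. It matched 4 of the 8 licensing and helicase genes with a promoter and 0 of 9 spindle and checkpoint genes. Mcm7 was counted as matching if either of its starts did, whereas each of the 32851 promoters was counted on its own. The Mcm7 start that is not shown had 0 matches to TTTNNCGC. Cdt1, the gene with the largest rise, had no match to any of the 3 motifs in this window, and Pcna, which also rose, had a CCAAT match alone. Among the other motifs, TTTGAA matched 8 of 26, beside 16.0% of all promoters, and CCAAT 20 of 26, beside 33.8%. A match is a description of the letters and says nothing of binding.

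The next group holds the clamp, the topoisomerase and the enzymes that supply nucleotides, and 1 of its 5 genes, Pcna, rose in each genotype. Pcna, the sliding clamp of the DNA polymerases, which also serves in DNA repair, measured 10.85, 11.17 and 11.29 in KO MCAO arrays, against 10.31, 10.19 and 10.27 in the KO sham arrays. WT MCAO arrays held 10.78, 11.13 and 11.31, against 10.62, 10.65 and 10.52 in the WT sham arrays. The groups did not overlap in either genotype. It rose by 0.88 in KO (SE 0.12, adjusted p = 5.27e-05) and by 0.46 in WT (SE 0.12, adjusted p = 0.0154), and the WT call needed WT sham array 1 (0.48 without it, adjusted p = 0.0542) and WT sham array 3 (0.42 without it, adjusted p = 0.0772).

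Top2a, which untangles chromosomes in dividing cells, measured 4.65, 5.07 and 5.73 in KO MCAO arrays, against 5.12, 4.93 and 4.95 in the KO sham arrays. Its values in WT MCAO arrays were 4.74, 5.20 and 5.78, against 4.99, 5.29 and 4.72 in the WT sham arrays. Both pairs of groups overlapped. The differences of 0.05 in KO (95% confidence interval -0.39 to 0.50) and 0.23 in WT (-0.22 to 0.67) did not pass the test. The ribonucleotide reductase subunits Rrm1 and Rrm2 had 0.34 and 0.12 in KO and -0.03 and 0.25 in WT, none past the test. Tyms, thymidylate synthase, had -0.13 in KO and 0.02 in WT.

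Among the cyclins, Ccnd1, the D-type cyclin that partners Cdk4 and Cdk6 at cell cycle entry, rose in both genotypes. It measured 8.43, 9.43 and 10.00 in KO MCAO arrays, against 8.77, 8.65 and 8.78 in the KO sham arrays, and the groups overlapped through KO MCAO array 7, which held the 8.43. WT MCAO arrays gave 9.05, 9.19 and 9.51, against 8.00, 8.82 and 8.31 in the WT sham arrays, with no overlap. The rise was 0.65 in KO (SE 0.23, adjusted p = 0.0403) and 0.91 in WT (SE 0.23, adjusted p = 0.00923). The KO call was lost when any of 8 of the 10 KO arrays was left out, with values of 0.55 to 0.67 and adjusted p between 0.0505 and 0.134, and the WT call without WT sham array 1 (0.72, adjusted p = 0.0921). The KO call was also lost after repeated quantile normalization (0.49, adjusted p = 0.163), with the replicate block (0.66, adjusted p = 0.0633), with the Gapdh covariate (0.70, adjusted p = 0.0514), with the KO arrays alone (0.65, adjusted p = 0.08) and without KO MCAO array 4 and WT MCAO array 4 (0.63, adjusted p = 0.0553). A further Ccnd1 probe set rose by 1.42 in KO, and both further ones had positive differences in WT, 0.83 and 0.93, that missed the threshold.

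The later cyclins did not follow Ccnd1. Ccne1, the E-type cyclin that acts with Cdk2 at the start of S phase, was lower in KO, at 7.74, 8.02 and 8.19 in KO MCAO arrays against 8.33, 8.25 and 8.34 in the KO sham arrays. That fall of 0.31 on the log2 scale (SE 0.10, adjusted p = 0.0274) came with no overlap, but it missed the threshold without any 1 of the 3 KO sham arrays (adjusted p between 0.0649 and 0.106) or without KO MCAO array 3 (adjusted p = 0.0505). The KO call was also lost with the mean of the probe sets and with arrays centred on their median. Like that of Mcm5, the Ccne1 probe set used is of a design that can cross-hybridise. WT MCAO arrays gave 7.70, 7.86 and 7.94 for Ccne1, against 8.19, 7.85 and 7.87 in the WT sham arrays, an overlapping difference of -0.13 that did not pass the test. A second Ccne1 probe set showed the opposite split, with -0.12 in KO and a fall called in WT (-0.39). Ccne2 (0.30 in KO and -0.06 in WT), the S-phase cyclin Ccna2 (0.02 and 0.10), the mitotic cyclin Ccnb2 (-0.10 and -0.27) and the mitotic kinase Cdk1 (-0.23 and 0.30) were not called in either genotype.

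Both E2F genes of the list were called lower in KO and neither in WT, but E2f5 went opposite ways on different probe sets. E2f1, an activator of replication genes, measured 6.69, 7.05 and 7.12 in KO MCAO arrays, against 7.36, 7.28 and 7.56 in the KO sham arrays, with no overlap. The difference was -0.44 (SE 0.12, adjusted p = 0.0124), and -0.36 without KO sham array 3 (adjusted p = 0.0974). Of its 2 further probe sets 1 was also lower in KO (-0.42), and the other had -0.09. WT MCAO arrays gave 6.85, 7.08 and 7.33, against 7.42, 7.07 and 6.96 in the WT sham arrays, groups that overlapped with a difference of -0.06. E2f5, a repressor that works with pocket proteins, measured 8.72, 9.25 and 10.18 in KO MCAO arrays, against 10.17, 10.35 and 10.46 in the KO sham arrays, on the probe set with the highest mean. The groups overlapped by a single array, and the difference of -0.97 passed the test (SE 0.23, adjusted p = 0.00508). Its 2 further probe sets were both called higher in KO MCAO arrays, by 0.49 and 0.95, and the mean of all 3 had 0.16 (adjusted p = 0.162), so no direction is given for E2f5. WT MCAO arrays gave 8.90, 9.27 and 9.97 for E2f5, against 9.09, 9.02 and 9.14 in the WT sham arrays, an overlapping difference of 0.29.

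Of the 11 genes of the spindle, the checkpoint and mitotic exit, 0 were higher and 1 lower in KO, and 0 were called in WT, where limma gave 2 with an unadjusted p under 0.05. In KO 7 differences were positive and 4 negative (median 0.03), and in WT all 11 were positive (median 0.23). All probe sets with a mean log2 signal under 6 had a median of -0.14 in KO and 0.10 in WT, and the median level of the 11 genes was 5.71. Mki67, a protein of mitotic chromosomes widely used to mark dividing cells, measured 4.66, 4.73 and 4.97 in KO MCAO arrays, against 4.72, 4.59 and 4.66 in the KO sham arrays. It measured 4.57, 4.79 and 5.25 in WT MCAO arrays, against 4.79, 4.71 and 4.33 in the WT sham arrays. Both pairs overlapped, with differences of 0.12 in KO (95% confidence interval -0.16 to 0.40) and 0.23 in WT (-0.04 to 0.51). These intervals leave out a change of 2-fold in the array signal of Mki67 in either genotype. They do not exclude such a change in the transcript. Mki67 had a single probe set, with group means of 4.61 to 4.85, below the medians of the surgery arrays (6.32 to 6.45).

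Tpx2, which builds the spindle and activates Aurora A, was the spindle gene called lower in KO. It measured 5.81, 6.14 and 6.87 in KO MCAO arrays, against 6.78, 6.94 and 7.07 in the KO sham arrays, and 6.12, 6.38 and 7.05 in WT MCAO arrays, against 5.93, 5.94 and 6.12 in the WT sham arrays. In KO 1 MCAO array lay inside the range of the sham arrays, and in WT the lowest MCAO array lay just above the highest sham array. The difference was -0.73 in KO (SE 0.20, adjusted p = 0.0122) and 0.50 in WT (adjusted p = 0.096), and the KO value missed the threshold without KO sham array 2 (-0.72, adjusted p = 0.0508) or KO sham array 3 (-0.66, adjusted p = 0.0732). A second probe set was lower by -0.56 in KO, whereas the other 2, at mean signals of 4.8 and 4.5, had 0.11 and 0.16. With the mean of all Tpx2 probe sets the KO call was lost, so it rests on the brighter ones. Bub1b, a kinase of the spindle checkpoint, had -0.28 in KO (adjusted p = 0.103) and 0.23 in WT, and its 2 further probe sets were called lower in KO, by -0.44 and -0.32. Differences in Bub1, Aurka, Aurkb, Plk1, Birc5, Cenpa, Cdc20 and Ube2c ran from -0.18 to 0.13 in KO and from 0.06 to 0.35 in WT, and none was called.

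Calls were also counted by signal level. Over all 80 probe sets of the 34 genes, 22 were higher and 9 lower in KO, where 12.8% and 7.67% of all 34945 probe sets were. Among the 31 with a mean log2 signal of 6 or above, 16 were higher and 4 lower in KO, beside 19.0% and 5.96% of all probe sets at that level. Below 6, 6 of 49 were higher and 5 lower, beside 2.64% and 10.5% of all such probe sets. In WT 6 of the 31 brighter probe sets were higher and 1 lower, beside 7.60% and 9.27% of all such probe sets, and 5 of the 49 dimmer ones were higher and 0 lower, beside 3.49% and 1.66%. The median level was 6.90 for the licensing and helicase genes and 5.71 for the spindle and checkpoint genes, where the medians of the surgery arrays were 6.32 to 6.45.

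**Figure D4:**
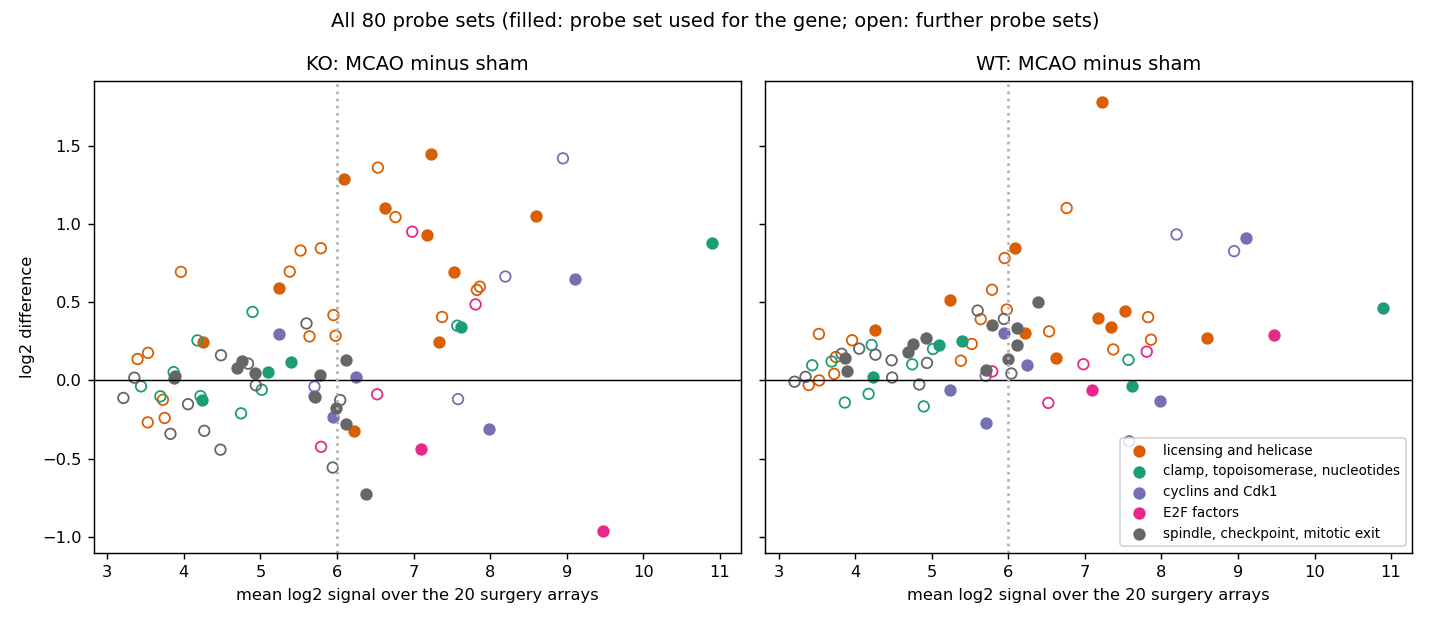
Log2 difference between MCAO and sham arrays against mean log2 signal over the 20 surgery arrays for all 80 probe sets, in KO (left) and WT (right), filled where the probe set stands for its gene and coloured by role; the dotted line marks a signal of 6. Most licensing and helicase probe sets lie above 0 in both panels, and E2f5 holds both the lowest filled point in KO and 2 open points above 0.

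A measure of RNA quality is set beside the lower calls in KO. The signal of the 3′ probe set for actin minus that of the 5′ one was 0.43 to 1.75 in KO MCAO arrays and 1.60 to 1.76 in KO sham arrays, against 0.39 to 1.70 in WT MCAO arrays and 0.86 to 1.01 in WT sham arrays. KO MCAO arrays 1 and 6, at 1.59 and 1.75, held the highest E2f5 signals of their group, 10.18 and 9.84, and the highest Tpx2 signals, 6.87 and 6.51. WT MCAO array 4, at 1.70, likewise held the highest E2f5 and Tpx2 signals of its group, 9.97 and 7.05. Not every array kept this order. WT MCAO array 3, with the lowest difference of its group (0.39), held 9.38 for E2f5, above the 8.90 of array 5, at 0.98. KO MCAO array 7, at 0.43, held 6.33 for Tpx2, above the 5.85 of array 2, at 1.15. For E2f1 the highest KO MCAO arrays were 2 and 7, with actin differences of 1.15 and 0.43, and for Ccne1 they were 4 and 2, with 0.68 and 1.15, so these genes did not show that order. With the actin difference as a covariate, the 9 genes called higher in KO were still called and 0 were lower. E2f5 was then at -0.59 (adjusted p = 0.0679), Tpx2 at -0.43 (adjusted p = 0.139), E2f1 at -0.35 (adjusted p = 0.0845) and Ccne1 at -0.26 (adjusted p = 0.125). Most KO MCAO arrays lay below the KO sham arrays in the actin difference, so in KO this covariate and the surgery partly coincide. The same difference for Gapdh was -0.25 to 1.18 in KO MCAO and -0.27 to -0.25 in KO sham arrays. With it as the covariate, E2f5, Tpx2, E2f1 and Ccne1 kept their calls. The interquartile range of the signals was 3.50 to 3.82 in KO MCAO arrays and 3.33 to 3.42 in KO sham arrays, and 3.32 to 3.64 in WT MCAO arrays and 3.61 to 3.81 in WT sham arrays, and its part in these results was not tested.

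The design allows the change after MCAO to be compared between genotypes, and it differed for 4 of the 34 genes, with 1 positive and 3 negative differences (KO minus WT), beside 9.59% of all genes called, 4.09% positive and 5.5% negative. Of the 4, 2 were at least 2-fold, beside 0.423% of all genes. The change of Mcm7 was larger in KO by 0.78 (SE 0.23, adjusted p = 0.0412). Those of Tpx2 (-1.23, SE 0.28, adjusted p = 0.0194), E2f5 (-1.26, SE 0.33, adjusted p = 0.0280) and Cdc45 (-0.63, SE 0.19, adjusted p = 0.0428) were lower in KO. On further probe sets Mcm7 had 0.34, 0.17 and 0.21, none called, Tpx2 had -0.95, called, with 0.13 and 0.14, and E2f5 had 0.30 and a called 0.85, opposite to the first. All 11 spindle and checkpoint genes had a negative difference of changes (median -0.20), of which Tpx2 alone was called, and all probe sets with a mean log2 signal under 6 had a median of -0.22. None of these 4 calls held without WT sham array 1 (adjusted p between 0.0578 and 0.130), WT sham array 2 (0.0511 to 0.0823), KO sham array 2 (0.0542 to 0.101) or KO sham array 3 (0.0806 to 0.146), or with the actin covariate, where 0 genes of the list were called. The Mcm7 call was also lost without WT MCAO array 6 or any of KO MCAO arrays 2, 3, 4, 5 and 7 (adjusted p between 0.053 and 0.0563). The Cdc45 call was also lost without KO sham array 1, WT MCAO array 1, 4, 6 or 7, or KO MCAO array 2, 3, 4, 5 or 7 (adjusted p between 0.05 and 0.0687). Mcm5 (0.96, adjusted p = 0.0824), whose change was called in KO and not in WT, did not differ past the threshold between genotypes, nor did Mcm6 (0.53, adjusted p = 0.194), Cdt1 (-0.33, 95% confidence interval -1.08 to 0.41) or Ccnd1 (-0.26, -0.93 to 0.41).

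After MCAO itself, 0 of the 34 genes differed between KO and WT arrays (limma, adjusted p under 0.05), beside 0.044% of all genes, 0.0165% higher and 0.0275% lower, and 0.011% called at 2-fold or more. A single gene, Ccnb2, had an unadjusted p under 0.05, with 5.75 ± 0.16 in KO MCAO arrays and 5.55 ± 0.14 in WT MCAO arrays (SD, n = 7 each, adjusted p = 0.282). The groups overlapped for all 34 genes, where 0.368% of all genes showed no overlap. Confidence intervals of the 34 differences lay between -0.80 and 0.79, which for Mcm7 ran from -0.05 to 0.48, for Pcna from -0.12 to 0.28, for Cdt1 from -0.80 to 0.02 and for Mki67 from -0.28 to 0.15.

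After sham surgery, 2 genes were higher in KO than in WT and 0 lower, beside 6.05% of all genes called, 3.52% higher and 2.53% lower. Of the 2, E2f5 alone was at least 2-fold, beside 0.077% of all genes, and 14 of the 34 genes showed no overlap between sham groups, beside 42.2% of all genes. The calls were E2f5, at 1.24 (SE 0.28, adjusted p = 0.0224), and Tpx2, at 0.93 (SE 0.24, adjusted p = 0.0304), whose sham arrays are listed with the MCAO values above and did not overlap. For E2f5 the 2 further probe sets had -0.21 and -0.53, and for Tpx2 1 of 3 further probe sets was called higher, by 0.66. Leaving out any 1 of WT sham arrays 1, 2 and 3 or KO sham arrays 2 and 3 ended both calls, with adjusted p between 0.0523 and 0.151, and so did the actin covariate. Mcm7, at 7.85 ± 0.35 in KO sham arrays and 8.42 ± 0.18 in WT sham arrays (SD, n = 3 each), and Pcna, at 10.26 ± 0.06 in KO sham arrays and 10.60 ± 0.07 in WT sham arrays, had lower means in KO without passing the test (adjusted p = 0.0775 and 0.154). These sham differences enter the differences of changes given above, since the same arrays are used.

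In naive brains, 2 genes were higher in KO, Mcm2 and Mcm6, and 2 lower, Top2a and Bub1, beside 14.7% of all genes called, 6.37% higher and 8.31% lower. None was 2-fold (0 of 34, beside 0.154% of all genes), and groups did not overlap for 2 genes, beside 10.8%. In these arrays another probe set stood for Ccnd1, Cenpa, Mcm3, Rrm1 and Top2a than in the surgery arrays. Mcm2 measured 6.99, 7.15 and 7.25 in KO naive arrays, against 6.47, 6.65 and 6.70 in WT naive arrays, with no overlap and a difference of 0.51 (SE 0.06, adjusted p = 5.16e-05). Mcm6 measured 7.03, 7.25 and 7.38 in KO naive arrays, against 6.83, 6.92 and 7.07 in WT naive arrays, an overlapping difference of 0.28 (SE 0.07, adjusted p = 0.00922). Both of its further probe sets pointed down, at -0.40 and -0.37, and the mean of the 3 had -0.17 (adjusted p = 0.248), so no direction is given for Mcm6 in naive brain. Bub1, a checkpoint kinase, measured 4.08, 4.35 and 4.64 in KO naive arrays, against 4.63, 4.76 and 5.60 in WT naive arrays (difference -0.54, SE 0.13, adjusted p = 0.0101). Top2a measured 5.39, 5.66 and 5.83 in KO naive arrays, against 5.64, 6.02 and 6.88 in WT naive arrays (-0.60, SE 0.17, adjusted p = 0.0286). Both pairs overlapped. A second Bub1 probe set had -0.49 and the other Top2a probe sets -0.11 and 0.09, none called. The Top2a call was lost without WT naive array 8 (-0.57, adjusted p = 0.0522) or KO naive array 1, 2 or 3 (adjusted p between 0.0586 and 0.063).

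WT naive array 6 stood apart from the other naive arrays. Its correlations with them were 0.804 to 0.830, where those among the others were 0.978 to 0.999, and its actin difference was 4.88, where theirs were 0.28 to 0.82. It held 8.86 for Mcm4, where the other WT naive arrays held 7.15 to 7.65, and 8.55 for Cdt1, where they held 6.56 to 6.96. Without it, 8 genes were called, 5 higher in KO (Mcm2, Mcm4, Mcm6, Cdt1 and Ccnd1) and 3 lower (Cdc6, Top2a and Bub1), beside 36.5% of all genes, 24.1% higher and 12.4% lower. Mcm2 was then at 0.52 (SE 0.05, adjusted p = 2.36e-06), Mcm4 at 0.30 (adjusted p = 0.00312) and Ccnd1 at 0.30 (adjusted p = 0.000604). The lowest signal of an array was 3.19 to 3.28 in KO naive arrays and 3.49 to 3.73 in WT naive arrays, and the medians, at 7.03 to 7.05 and 6.87 to 6.94, did not overlap either. Normalization and genotype therefore cannot be told apart in the naive arrays, and below a signal of 6 29.9% of all probe sets were lower in KO. Pairs of KO naive arrays also shared 1744 to 2878 identical values, where pairs of WT naive arrays shared 1 to 48. KO naive arrays 2 and 3, for example, held the same Mcm2 value, 7.15. Such ties can narrow the spread in KO, so the SEs and adjusted p of the naive comparison may be too small.

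**Figure D5:**
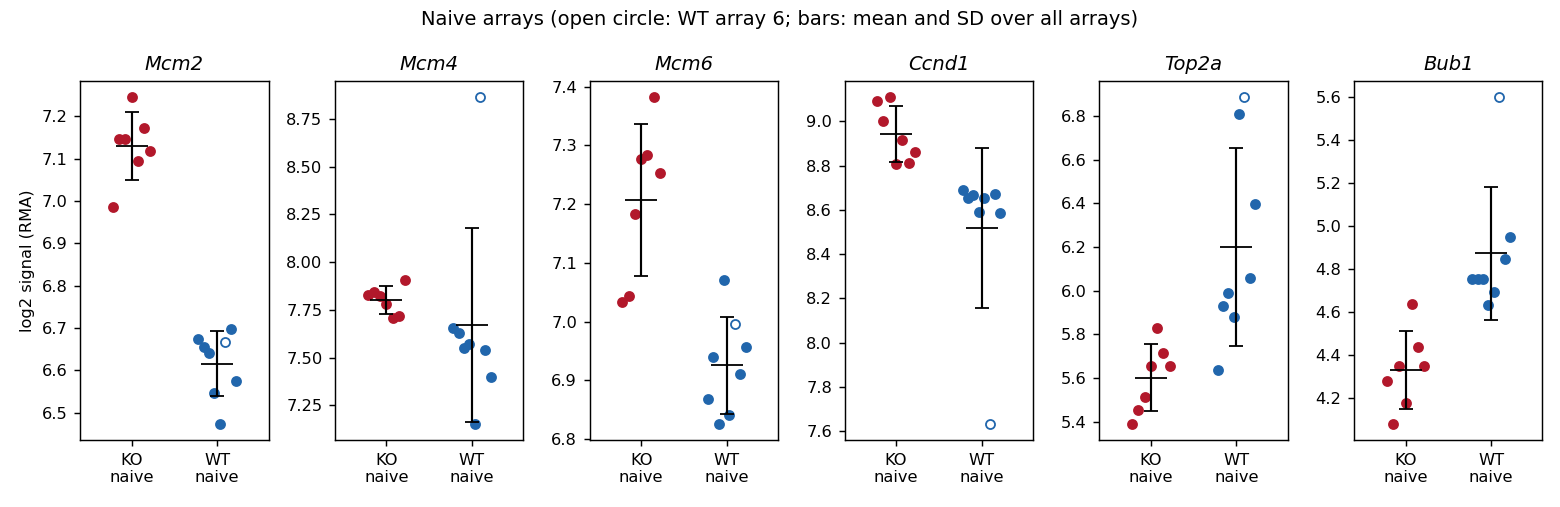
Log2 signal of 6 genes in each KO naive (left, n = 7) and WT naive array (right, n = 8), with bars for mean and SD over all arrays and an open circle for WT naive array 6; the axes differ between genes and do not start at 0. Mcm2 shows no overlap with or without that array, while Mcm4 and Ccnd1 separate from the other WT naive arrays.

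The rest of the pathway was read from lists of other genes. Of 37 other replication genes 10 were higher and 2 lower in KO after MCAO (32.4% called, beside 25% of all genes), among them Dbf4 (0.62, adjusted p = 0.000998), the activator of the Cdc7 kinase, the clamp loader subunits Rfc4 (0.70) and Rfc3 (0.78), and Uhrf1 (0.98), which maintains DNA methylation at replication. In WT 5 were higher and 0 lower (13.5%, beside 15.9% of all genes), among them the polymerase epsilon genes Pole2 (0.65, adjusted p = 0.0076) and Pole (0.57). The flap endonuclease Fen1 was lower in KO (-0.46, adjusted p = 0.0175) and higher in WT (0.52, adjusted p = 0.0128), and the difference of these changes was called (-0.98, adjusted p = 0.0164). Of 42 other mitosis genes 7 were higher and 3 lower in KO, led by the condensin subunit Smc4 (0.86), and 5 higher and 2 lower in WT, where the kinesin Kif22 rose by 0.61. These counts are 23.8% of the list in KO and 16.7% in WT, near the 25% and 15.9% of all genes. Stmn1, which destabilises microtubules and is abundant in neurons, was lower in both (-0.41 in KO and -0.65 in WT).

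Of 8 other cyclins and cyclin-dependent kinases 5 were higher in KO (62.5%, beside 25% of all genes called), and 2 were higher and 1 lower in WT (37.5%, beside 15.9%). Cdk6, a partner of Ccnd1, averaged 6.79 ± 0.49 in KO MCAO arrays and 5.24 ± 0.17 in KO sham arrays, a rise of 1.55 (adjusted p = 4.05e-05). It averaged 6.46 ± 0.17 in WT MCAO arrays and 5.36 ± 0.32 in WT sham arrays (SD, n = 7 and 3), a rise of 1.11 (adjusted p = 0.00144). Ccnd2 was lower in WT (-0.53, adjusted p = 0.00718). Of 8 inhibitors of these kinases 1, Cdkn1a, which arrests the cycle, was called in each genotype (12.5% of the list, below the share of all genes), and it rose more than any listed cell cycle gene: 10.62 ± 0.56 in KO MCAO arrays and 7.95 ± 0.48 in KO sham arrays (difference 2.67, adjusted p = 2.48e-06), and 10.98 ± 0.29 in WT MCAO arrays and 7.75 ± 0.49 in WT sham arrays (3.23, adjusted p = 2.99e-07). Of 13 pocket proteins and other E2F factors 5 were higher and 1 lower in KO (46.2%, beside 25%), with Tfdp1 at 0.53 and Rb1 at 0.43, and 0 were called in WT, where 0 also had an unadjusted p under 0.05.

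The tissue carried the markers of brain, with neuronal markers averaging 12.4 to 12.9 log2 units in all surgery arrays. Of 5 neuronal markers 2 were lower in WT after MCAO and 0 were called in KO. The mean of 3 striatal markers varied among sham arrays, from 8.34 to 10.17 in KO and from 7.94 to 10.38 in WT. It was 7.69 to 9.06 in KO MCAO and 8.12 to 8.64 in WT MCAO arrays. The part of brain region in the differences from sham was not tested. Several marker lists held calls after MCAO. The endothelial genes Pecam1 and Cdh5 rose by 1.31 and 1.61 in KO and by 1.23 and 1.49 in WT, and 3 of the 5 endothelial and pericyte markers were higher in each genotype, with means of 8.42 to 9.73 in KO MCAO and 7.95 to 8.24 in KO sham arrays, and of 8.88 to 9.63 in WT MCAO and 8.07 to 8.54 in WT sham arrays. Gfap of astrocytes rose by 2.13 in KO and 1.95 in WT, while 4 of 5 astrocyte markers were not called. Among the progenitor markers 3 of 6 were higher in KO (Sox11, Sox2 and Nes) and 1 of 6 in WT (Nes, 0.83), and the mean of the list was 7.95 to 8.57 in KO MCAO against 7.71 to 8.17 in KO sham arrays, and 7.70 to 8.14 in WT MCAO against 7.93 to 8.06 in WT sham arrays. Microglial markers were lower in 2 of 5 cases in each genotype, P2ry12 by -1.62 in KO and -2.71 in WT, with list means of 7.83 to 8.42 in KO MCAO against 8.37 to 8.51 in KO sham arrays, and 7.55 to 8.08 in WT MCAO against 8.64 to 8.88 in WT sham arrays. The median difference of the 5 microglial markers was 0.085 in KO and -0.36 in WT. Their difference of changes (KO minus WT) was called positive for 2 and negative for 0. Of the infiltrating myeloid markers 3 of 8 were higher in each genotype, S100a8 by 2.10 in KO and 3.76 in WT, and 2 were lower in KO, with list means of 5.91 to 7.14 in KO MCAO against 6.02 to 6.21 in KO sham arrays, and 6.92 to 7.62 in WT MCAO against 5.84 to 5.99 in WT sham arrays. Of 4 markers of meninges and fibroblasts 3 were higher in KO (median 0.94) and 1 in WT (median 0.57). Of 5 markers of oligodendrocyte precursors 1 was higher and 2 lower in KO, and 1 higher and 1 lower in WT. Of 4 lymphocyte markers 2 were lower in KO and 0 were called in WT. The part of these cell types in the rise of the replication genes was not tested.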

How the data were processed

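RNA of mouse brain hemispheres was hybridised to Affymetrix arrays. The authors deposited signals on the log2 scale, made with RMA per the submitters' processing notes (RMA version not given), in 2 sets normalized apart per the labels. Of 45101 probe sets, 64 controls were left out, and 34945 with 1 gene symbol named 18193 genes, 34754 probe sets being matched to RefSeq by Entrez identifier. With lmFit and eBayes of limma 3.58.1 in R 4.3.3, the 20 surgery arrays were fitted with 4 groups, and the 15 naive arrays apart. A call needed a p below 0.05 after Benjamini-Hochberg adjustment over all genes. The members, gene lists and other settings were chosen with earlier results of these data known. Genes named outside the 34 are, of each list, up to 4 with the smallest p among those called, or genes singled out after their values were seen. On simulated data with 100 genes changed 2-fold, the fit recovered 92 in KO, 86 in WT and 70 for the difference of changes; at 1.5-fold it recovered 57, 57 and 24. The number of arrays limits the precision. The targeted receptor is not reported here.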

Additional observations from a re-analysis of the deposited data

Results flagged for a closer look

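The change after MCAO differed between genotypes for 4 of the 34 genes by the test of the difference itself (KO minus WT), with 0.78 for Mcm7, -0.63 for Cdc45, -1.26 for E2f5 and -1.23 for Tpx2 on the log2 scale. That is 11.8% of the list, beside 9.59% of all genes called. A further E2f5 probe set was called the opposite way, at 0.85, and none of the 4 calls held with the actin covariate or without any 1 of WT sham arrays 1 and 2 and KO sham arrays 2 and 3.

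In 18 of 136 gene-by-group sets of 7 or 8 arrays, 1 array lay far from the others, measured as its gap to the nearest array over the whole range of the group; Dixon's limit at 95% would be passed by chance in about 5% of sets. Of these, 10 were WT naive array 6, with ratios of 0.707 for Mcm4, 0.845 for Mcm5, 0.587 for Cdc6, 0.801 for Cdt1, 0.747 for Gins1, 0.797 for Ccna2 and 0.673 for Bub1, where it was the highest, and of 0.714 for Rrm1, 0.904 for Ccnd1 and 0.624 for E2f1, where it was the lowest. WT naive array 5 was highest for Cdc20 (0.684) and KO naive array 4 for Mcm7 (0.733). KO MCAO array 4 was highest for Mcm2 (0.579) and KO MCAO array 6 for Cdc20 (0.594). KO MCAO array 7 was lowest for Pcna (0.598) and Ccna2 (0.585). WT MCAO array 4 was lowest for Mcm3 (0.650) and highest for Cenpa (0.659).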

How the results depend on the processing

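Counts here are of the 34 genes called. In KO after MCAO the count of 13 fell to 4 when a 2-fold change was also asked for, and was 9 to 13 with 1 array left out. Cdt1, Mcm3, Mcm4, Mcm5, Mcm6, Mcm7 and Pcna kept direction and call there under every other normalization, probe set rule, covariate or fit run that held them (Mcm3 and Mcm5 were not among the brighter genes), and with any array left out, although Mcm4, Mcm6 and Pcna were under 2-fold. In WT the count of 6 was 10 with array weights, 3 at adjusted p under 0.01, 1 with a 2-fold change, and 2 to 8 with 1 array left out (2 without WT sham array 1, 3 without WT sham array 3). For the difference of changes the count of 4 was 2 with the mean of the probe sets, 1 without dim genes, 2 after repeated quantile normalization, 7 with array weights, 2 with the replicate block, 1 with the Gapdh covariate, 0 with the actin covariate, 0 with replicate numbers 1 to 3 alone, 0 at adjusted p under 0.01, 2 with a 2-fold change, and 0 to 6 with 1 array left out. After sham surgery the count of 2 was 1 without dim genes, 11 with array weights, 0 with the actin covariate, 8 with only the arrays compared, 0 at 0.01, 1 with a 2-fold change, and 0 to 3 with 1 array left out. In naive brain the count of 4 was 0 without dim genes, which left 8 of the 34, 11 with array weights, 7 with the Gapdh covariate, 9 with the actin covariate, 2 at 0.01, 0 with a 2-fold change, and 3 to 8 with 1 array left out. Between KO and WT after MCAO it was 0 under every setting run, array weights included. With the mean of its probe sets, E2f5 in KO after MCAO had 0.157 (adjusted p = 0.162) and Mcm6 in naive brain -0.165 (adjusted p = 0.248). Of 669 values of single genes under other settings, 553 kept direction and call, 114 lost the call and 2 turned. Deviations of arrays of the same replicate number had correlations of -0.204 to 0.336 between KO and WT MCAO arrays and -0.278 to 0.205 between sham arrays. They were -0.0599 to 0.0819 between KO MCAO and KO sham arrays, -0.176 to 0.336 between those of WT, and -0.0916 to 0.362 between naive arrays. With 3 or 7 pairs each, these values cannot settle whether the numbers pair arrays. With the number as a block, 11 genes were called in KO, 4 in WT, 0 between genotypes after MCAO, 2 after sham surgery and 4 in naive brain. The causes of these shifts were not tested, beyond the fewer genes or arrays that a setting leaves. The 3 sham arrays per genotype limit each comparison with sham.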
